A study of Mus musculus with 19 samples.

Results

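The genes Tlr2 and Tlr4 encode Toll-like receptors, and the accessible regions around both were described from a consensus list of ATAC-seq peaks from mouse bone marrow-derived macrophages. ATAC-seq reads out open chromatin by where the Tn5 transposase cuts and tags the DNA, and stretches with more insertions than their surroundings are called as peaks. The members were every listed peak that shared at least 1 base with either of 2 windows of mm39. For Tlr2 the window was chromosome 3 from 83715000 to 83775000, and for Tlr4 it was chromosome 4 from 66715000 to 66850000. The windows held 13 and 14 peaks, together 27 of 140383 in the list. The windows were set by position around the genes, not by peak values.

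The study collected 19 samples in 10 groups: wild-type (Csf1r-Cre) cells and Smarca5-/- (Smarca5lox/lox Csf1r-Cre) cells, each untreated, given LPS at 10 ng/ml for 1 or 2 h, or given IFNb at 100 U/ml for 1 or 2 h. Each group had 2 samples, except wild-type cells given IFNb for 1 h, which had 1. All cells, controls included, carried Csf1r-Cre, in which a promoter of the macrophage lineage drives the recombinase, and received 4-hydroxytamoxifen daily over 7 days of differentiation. The labels name no animal for a sample, so separate animals cannot be assumed. Each listed peak carries only 1 value of each kind for the whole series, with no sample named. Genotypes and treatments were therefore not compared at these loci, no value has a replicate error, the depth behind each peak is unknown, and no test between the loci was run.

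Toll-like receptors recognise conserved microbial molecules at the surface or in endosomes of innate immune cells, and macrophages are among the cells that rely on them most. Tlr4, together with its partner Ly96 (MD-2), binds LPS, the stimulus used in this study, and signals through the adaptors Myd88 and Ticam1, the latter leading to type I interferon. Tlr2 recognises bacterial lipoproteins as a dimer with Tlr1 or Tlr6 and signals through Myd88, which activates NF-kB. Smarca5 encodes an ATPase of the ISWI family of chromatin remodellers.

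Tlr2 is transcribed from the minus strand, so it reads towards lower coordinates, and the position available for it in mm39 is its lower end, near 83743580, where the gene finishes. Its start lies at a higher coordinate and was not placed here, because the gene table used belongs to another build, GRCm38.p6. Tlr4 is on the plus strand and starts near 66745800. In the order of protein-coding genes in that table, Tlr2 stands between Sfrp2 and Tmem131l, and Tlr4 between Trim32 and Brinp1. No peak was assigned to an exon, an intron or an untranslated region. Summit distances below are counted from the lower end of Tlr2 and from the start of Tlr4, and positive values lie at higher coordinates.

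The Tlr2 promoter is shown because the peaks of highest −log10 q in this window lay on the side of the gene end where its start lies. The 2 highest had summits 26858 and 9079 bp above that end, and no peak was placed on the promoter. The sequence comes from RefSeq on GRCm38.p6, chr3:83841559-83841858, minus strand, and spans 250 bases before to 50 bases after a start of the gene. Its coordinates belong to that build and were not converted, so they were not set against the mm39 peaks. It is written 5′ to 3′ along the gene, and capitals mark matches to the NF-kB letters GGGNNNNNCC on either strand.
Tlr2 promoter: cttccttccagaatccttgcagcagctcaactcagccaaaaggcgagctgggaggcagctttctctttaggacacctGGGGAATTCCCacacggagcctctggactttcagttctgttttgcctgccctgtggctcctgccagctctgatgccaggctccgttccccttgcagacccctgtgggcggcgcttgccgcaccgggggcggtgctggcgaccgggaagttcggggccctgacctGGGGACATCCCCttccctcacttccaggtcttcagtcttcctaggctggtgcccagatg
Counting from the start with no base 0, the capitals cover bases -173 to -163 and bases -9 to 3. The matches within each stretch overlap, and 7 were found in all over both strands. Such letters are common: 50.8% of 32851 promoters of the same length held at least 1 match. The Tlr2 sequence also held 2 matches to the Sp1 letters GGGCGG, present in 35.7% of promoters, which overlapped no NF-kB match. These letters, the PU.1 letters GAGGAA (28.3% of promoters), the IRF letters GAAANNGAAA (3.44%), the AP-1 letters TGANTCA (7.81%) and TATAAA (13.6%) were searched on both strands, and the last 4 had 0 matches in this window. The GC content of the Tlr2 promoter was 62.0%, against a median of 52.7% over all promoters. From a list of 33 genes of Toll-like receptor signalling, 26 had a promoter in the table, and the letters were counted for a gene when at least 1 of its entries held them. The NF-kB letters were held by 19 of the 26, against 53.5% of all 27025 genes in the table, and the Sp1 letters also by 19, against 38.2%. The PU.1 letters were held by 13 (31.3% of all genes), TATAAA by 4 (15.7%), the IRF letters by 3 (3.99%) and the AP-1 letters by 1 (8.97%). A match is a run of letters and not a binding site.

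Accessible regions were packed more closely around Tlr2 than around Tlr4. The Tlr2 window held 21.7 peaks per 100 kb and the Tlr4 window 10.4, a ratio of 2.09. Peaks covered 3949 bases or 6.58% of the Tlr2 window, against 3533 bases or 2.62% of the Tlr4 window. When the autosomes were divided into 40954 tiles of 60 kb, 5.22% of tiles held at least 13 summits, the number in the Tlr2 window, and the median tile held 1. Among 18195 tiles of 135 kb, 24.6% held at least 14 summits, the number in the Tlr4 window, and the median tile held 3. Tiles with no summit made up 44.9% of those of 60 kb and 36.7% of those of 135 kb. The windows were set around genes and the tiles were not, so these shares compare unlike stretches. The difference in density depends in part on how far each window reaches: with 30 kb on each side of the reference position at both loci, there were 13 peaks at Tlr2 and 8 at Tlr4, a ratio of 1.62.

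**Figure D1:**
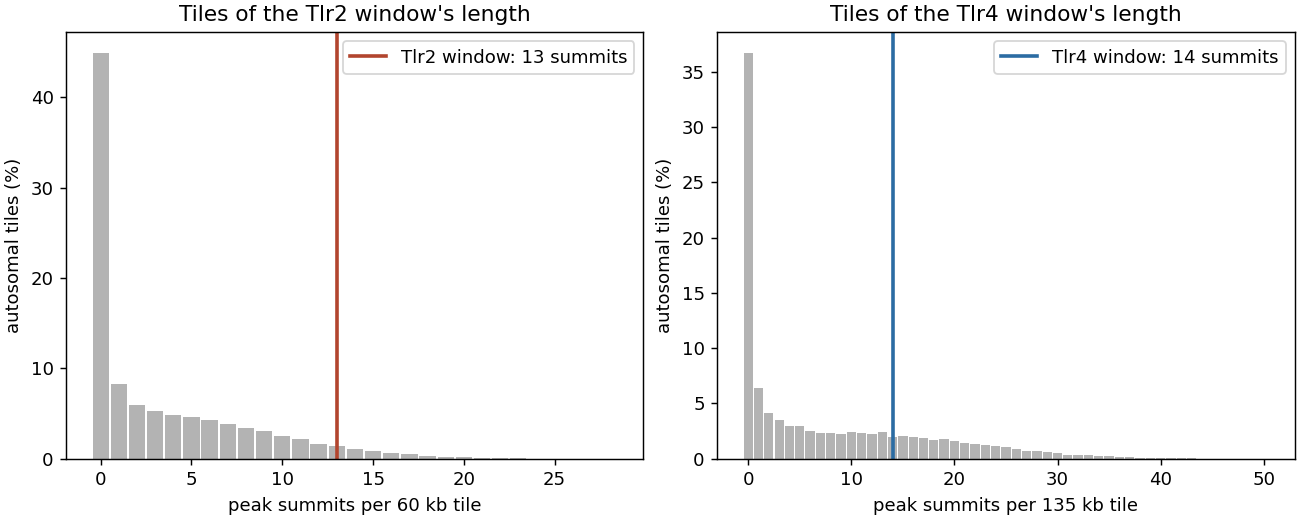
Bars give the percentage of autosomal tiles (y axis) by the number of peak summits they hold (x axis), for tiles of 60 kb on the left and 135 kb on the right, and the coloured line is the window of each receptor gene. The Tlr2 line at 13 summits lies in the right tail of its distribution, reached by 5.22% of tiles, whereas 24.6% of tiles reach the 14 summits of the Tlr4 window.

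The peaks were also spread differently. At Tlr2, gaps between neighbouring peaks had a median of 3696 bp and the longest was 10126 bp. At Tlr4, the median gap was 5561 bp, but 35948 bp separated the last 2 peaks and 21714 bp separated the peaks whose summits lay 42258 and 64222 bp above the start. Of the 14 Tlr4 peaks, 3 had a summit below the gene start and 11 above it. Of the 13 Tlr2 peaks, 7 had a summit below the lower end of the gene and 6 above it.

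**Figure D2:**
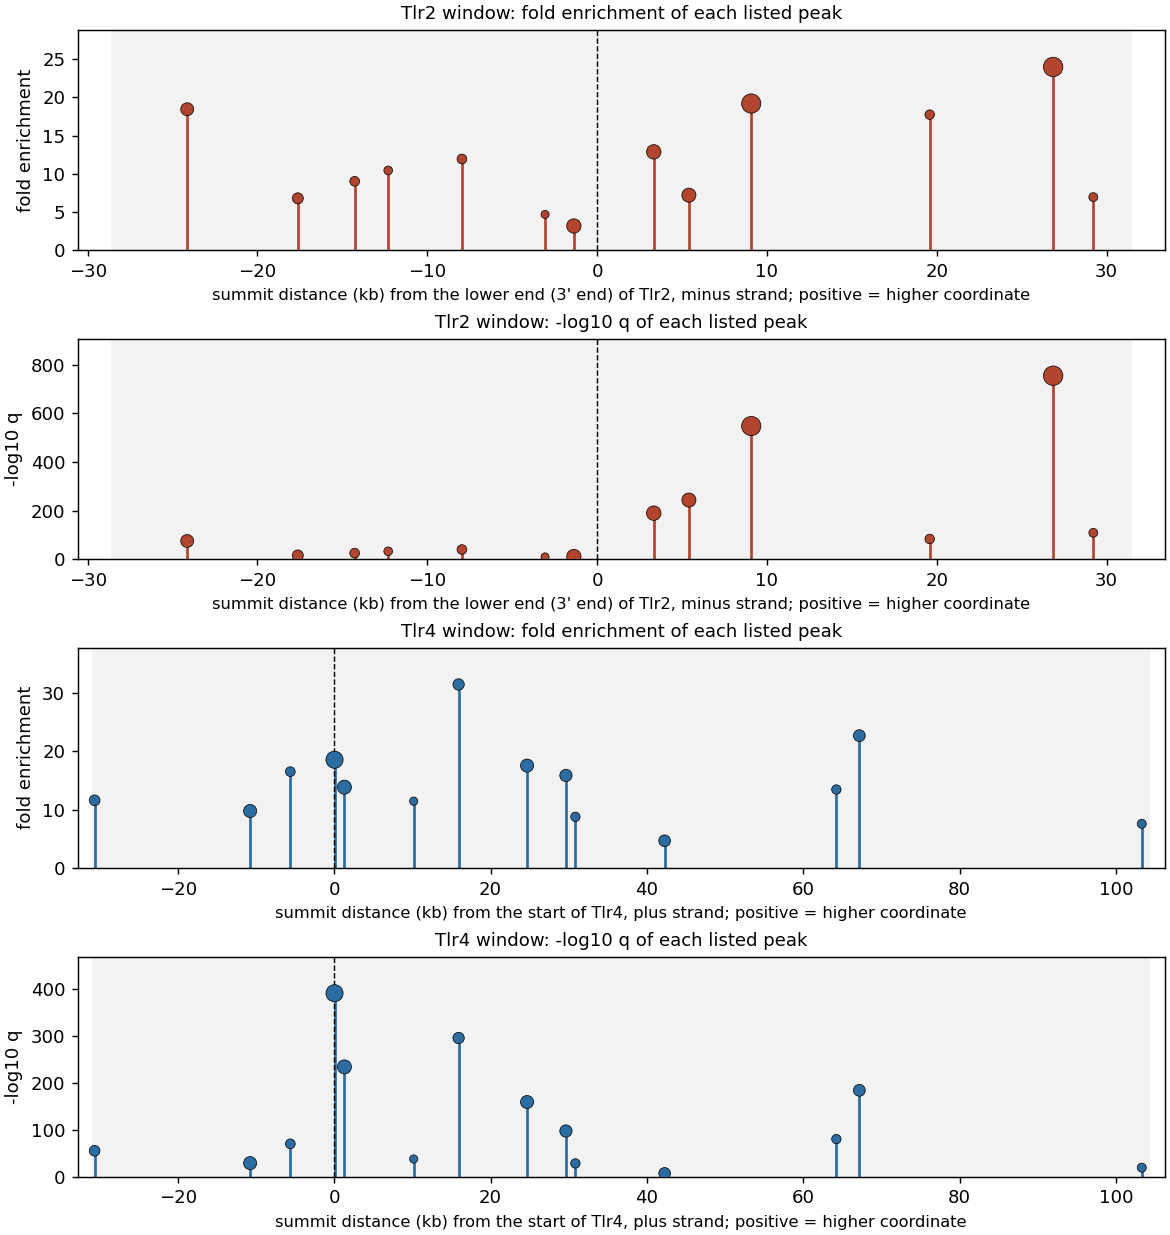
Each line and point is a listed peak, placed by the distance of its summit in kb from the lower end of Tlr2 (upper pair of panels) or from the start of Tlr4 (lower pair), with its fold or −log10 q on the y axis and a point area in proportion to its width. The shaded span is the window. At Tlr2 the 7 peaks to the left of the dashed line all have a −log10 q of 75.1 or less and the 6 to the right 83.3 or more, and at Tlr4 the highest −log10 q, 390, stands at the dashed line.

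At Tlr4, an accessible region covered the position given for the gene start. The peak at chromosome 4 from 66745621 to 66746159 was the widest of the Tlr4 window, 539 bp. Its summit lay 36 bp from that position, which is known only as near 66745800. It had a fold of 18.6, which is the authors' enrichment over local background, and a −log10 q of 390, the highest of this window. Of all listed peaks, 82.2% had a lower fold and 92.6% a lower −log10 q. A companion of 361 bp followed after a gap of only 809 bp, from 66746969 to 66747329, with a fold of 13.9 and a −log10 q of 233.

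The Tlr4 peak of highest fold was not the one at the start. It lay at chromosome 4 from 66761577 to 66761812, with its summit 15907 bp above the start, in the direction of transcription. Its fold of 31.5 exceeded that of 98.0% of all listed peaks, although it was only 236 bp wide, and its −log10 q was 295. The next highest fold in the window, 22.7, belonged to a peak of 257 bp with its summit 67161 bp above the start, from 66812814 to 66813070, with a −log10 q of 184. After it came the peak at the start and then a 314 bp peak from 66770265 to 66770578, with its summit 24665 bp above the start, whose fold was 17.6 and whose −log10 q was 159. The fifth, from 66740132 to 66740305, had its summit 5616 bp upstream of the start, with a fold of 16.5 and a −log10 q of 69.9. Ranked by fold, the leading Tlr4 regions thus lay at the start, upstream of it and at 3 places above it.

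Weak peaks were also present around Tlr4. The weakest, from 66787991 to 66788241, had a fold of 4.66 and a −log10 q of 7.10, which was higher than in only 1.58% of all listed peaks. The narrowest, 124 bp from 66755892 to 66756015, had a fold of 11.5 and a −log10 q of 37.7. The 6 Tlr4 peaks not yet given by position had folds between 7.57 and 15.9 and −log10 q values between 19.3 and 97.1, and lay on both sides of the start.

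At Tlr2, the strongest region lay well away from the gene's lower end. This distance is from the end of the gene, unlike those at Tlr4, which are from its start. Whether a Tlr2 peak lay on the gene start was not determined. The peak at chromosome 3 from 83770181 to 83770873 had its summit 26858 bp above that end, on the side where the start of this minus-strand gene lies. It led the window on every measure: a width of 693 bp, a fold of 24.0 and a −log10 q of 755, higher than 97.6% of all listed peaks. It was the only Tlr2 peak with a fold of at least 20, against 2 of 14 at Tlr4 and 15.0% of all listed peaks. Next came a peak of 681 bp from 83752251 to 83752931, with its summit 9079 bp above the lower end, a fold of 19.2 and a −log10 q of 548. These 2 regions together made up 61.0% of the summed −log10 q of the Tlr2 window, whereas the highest 2 of the Tlr4 window made up 40.7%.

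The other leading Tlr2 peaks lay on both sides of the gene end. The peak furthest below the gene, from 83719363 to 83719670 (308 bp), had a fold of 18.4 but a −log10 q of 75.1. The peak from 83763058 to 83763223, with its summit 19589 bp above the lower end, had a like fold of 17.7 and a −log10 q of 83.3 in only 166 bp. The fifth highest fold was 12.9, at the 384 bp peak from 83746796 to 83747179, the first one above the lower end, with a −log10 q of 190.

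Just below the lower end of Tlr2, the listed peaks were weak, unlike the peak 3339 bp above it with its −log10 q of 190. The nearest peak, from 83742072 to 83742449, had its summit 1366 bp below the end of the gene. Its fold of 3.20 was the lowest of both windows and was exceeded by all but 1.40% of listed peaks, and its −log10 q was 11.3, although it was 378 bp wide. The narrowest peak, 120 bp from 83740476 to 83740595, had a fold of 4.70 and a −log10 q of 9.58. Between these and the peak furthest below the gene lay 4 narrow to moderate peaks, with summits 7958 to 17623 bp below the lower end, widths of 139 to 223 bp, folds of 6.81 to 11.9 and −log10 q values of 15.4 to 39.9. A fold below 5 was found for these 2 Tlr2 peaks, for 1 Tlr4 peak and for 10.4% of the list.

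The sides of the Tlr2 gene end were separated by −log10 q. The 7 peaks below the lower end had −log10 q values from 9.58 to 75.1 with a median of 25.1, and the 6 peaks above it had values from 83.3 to 755 with a median of 216, so the ranges did not overlap. Fold did not separate the sides: it ran from 3.20 to 18.4 below and from 6.97 to 24.0 above. At Tlr4, the 3 peaks below the start had −log10 q values from 28.9 to 69.9, inside the range of 7.10 to 390 of the 11 peaks above it. Peaks of a window share their source and are not replicates, so these ranges are a description of the list. The comparison of sides was chosen after the values were seen. How often other positions in the list divide their neighbouring peaks in this way was not counted.

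Some peaks had a −log10 q that was high for their fold. To express this, each −log10 q was divided by the median −log10 q of all peaks in the same percentile of fold. The quotient was at least 2 for 5 of 13 Tlr2 peaks, 2 of 14 Tlr4 peaks and 21.0% of the whole list. At Tlr2 all 5 lay above the lower end, and the 7 peaks below it had quotients from 0.631 to 0.906. The highest, 11.9, belonged to the peak from 83748689 to 83749052, with its summit 5408 bp above the lower end: its fold was only 7.22, but its −log10 q was 243, and 99.7% of listed peaks had a lower quotient. The next, 5.53, was at the last peak of the window, only 145 bp wide, with a fold of 6.97 and a −log10 q of 109. At Tlr4 the 2 peaks were the one at the start, with a quotient of 3.04, and its companion, with 3.55. All other Tlr4 peaks had quotients from 0.588 to 1.43, including that of highest fold, at 0.631.

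Width moved with this quotient. In the whole list, 32.4% of peaks at least 300 bp wide had a quotient of at least 2, against 17.2% of narrower ones. Of the 5 such Tlr2 peaks, 4 were at least 300 bp wide, and both such Tlr4 peaks were, against 38.4% of such peaks in the list. The part of width in the quotients was not tested.

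**Figure D3:**
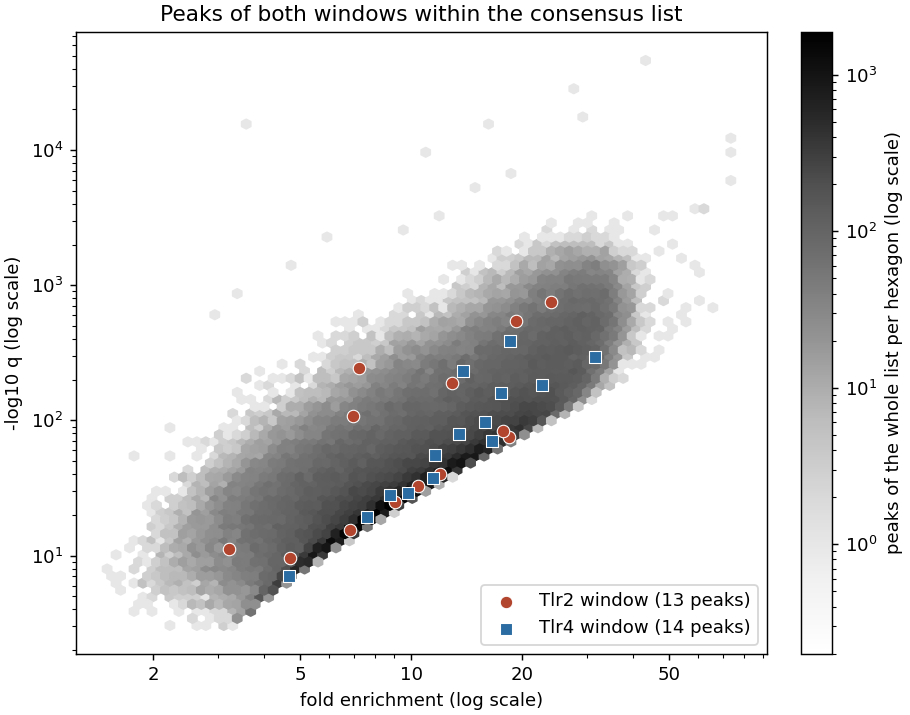
Fold (x axis) is set against −log10 q (y axis), both on log scales, with the whole list as grey hexagons (darker means more peaks) and the peaks of the windows as coloured points. The Tlr2 peak with a fold of 7.22 and a −log10 q of 243 stands high in the grey cloud for its fold, and the other Tlr2 peak raised above the cloud's dense lower part at a low fold, 6.97, is the last of the window.

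By their medians, the loci were alike in −log10 q and less so in fold. The median −log10 q was 75.1 at Tlr2 (95% order-statistic interval 15.4 to 243) and 75.0 at Tlr4 (28.3 to 233), against 45.3 in the whole list. With 30 kb on each side of the reference position, the median at Tlr4 was 128 and that at Tlr2 was 0.587 times as high; without the 2 highest peaks at each locus the ratio was 0.638. The median fold was 10.5 at Tlr2 (6.81 to 18.4) and 13.7 at Tlr4 (8.77 to 18.6), against 9.85 in the list. The intervals of the loci overlap over most of their length. They treat the peaks of a window as independent, which the peaks are not known to be, so their overlap is no test of likeness between the loci. A fold above the list's median was found for 7 of 13 Tlr2 peaks, 10 of 14 Tlr4 peaks and 50.0% of the list. Among only those peaks at or above the list's median −log10 q, the order of the median folds turned, with Tlr2 at 1.07 times Tlr4. The median width was 223 bp at Tlr2 (145 to 384) and 244 bp at Tlr4 (162 to 315), against 196 bp in the list, and its order turned likewise, with Tlr2 at 1.42 times Tlr4 among those stronger peaks. At least 300 bp were reached by 6 of 13 Tlr2 peaks, 4 of 14 Tlr4 peaks and 24.9% of all peaks.

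**Figure D4:**
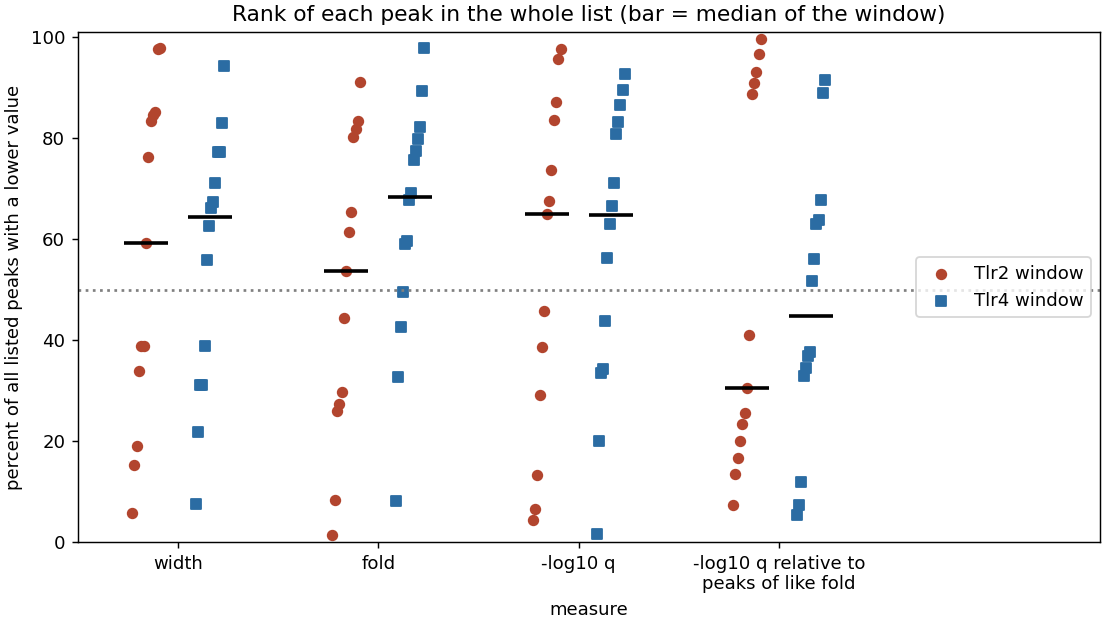
Each point is a peak of the Tlr2 (circles) or Tlr4 (squares) window, and the y axis is the percentage of all listed peaks with a lower value of width, fold, −log10 q or −log10 q divided by the median of peaks of like fold. Black bars are the medians of each window and the dotted line marks the middle of the list. In the last column, 5 Tlr2 peaks and 2 Tlr4 peaks stand apart above the rest.

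If the scores are plain means of whole numbers, they hold a trace of how many values were averaged for a peak. How the scores were made is not given. A score that becomes whole only when multiplied by 20 cannot be a plain mean of fewer than 20 whole numbers. With 19 samples in the series, it is therefore not a plain mean of 1 whole number per sample. Such scores belonged to 2 of 13 Tlr2 peaks, 4 of 14 Tlr4 peaks and 14.6% of the list. At Tlr4 these were the peak at the start, its companion and the peaks with summits 29633 and 67161 bp above the start. At Tlr2, 1 was the peak with the quotient of 11.9, and the other one was a peak of low fold, 9.03, from 83729223 to 83729396. The strongest Tlr2 peak became whole at a multiplier of 4 and the Tlr4 peak of highest fold at 5, which sets no upper limit to the number averaged. Which samples enter a mean is not given by the list.

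The window edges cut through no peak. At Tlr2, the nearest peaks outside lay 9633 bp below the window, with a fold of 16.2, and 7534 bp above it, with a fold of 15.9. The first and last peaks inside had folds of 18.4 and 6.97. At Tlr4, the first peak inside began 61 bp from the edge, with a fold of 11.6, and the nearest one outside lay 2232 bp below the window, with a fold of 8.07. At its upper edge, the last peak inside and the first outside had folds of 7.57 and 8.35, with a −log10 q of 19.3 and 21.0.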

How the data were processed

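The authors deposited 1 consensus peak list in narrowPeak layout for the whole series of 19 samples. Per the submitters' processing notes, the build was mm39 and the tools included MACS2 2.2.7.1, STAR 2.7.9a, deepTools 3.5.1 and Picard 2.27.4. What each tool did, any shift of reads, the calling threshold and how samples were joined are not given in the sources here. Deposited per peak are a score, a fold (linear ratio over local background, as MACS2 fills this column) and a −log10 q, and the −log10 p beside them was not used. Differences in how samples were combined could change every value.

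Coordinates were read as counted from 1: no neighbouring peaks then shared a base and 0 summit offsets reached the width, against 74 when counted from 0. Percentiles are shares of all 140383 peaks with a lower value. Tiles ran from base 1 of each autosome to its last peak. Quotients used 100 bins of fold. Scores were multiplied by whole numbers up to 20, with a tolerance of 1e-06. Intervals of medians are 95% order-statistic intervals that treat peaks as independent. Functions were tested on simulated data. Versions were scipy 1.17.1, pandas 2.3.3, numpy 2.4.6, matplotlib 3.10.9 and Python 3.11.15.

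Promoter sequences are from RefSeq, GRCm38.p6: Tlr2 had 1 entry, and no sequence is printed for Tlr4. Samples were grouped by title. Named peaks were, for each gene, the nearest to the reference position, the 5 of highest fold, the highest −log10 q, the widest, the narrowest, the lowest fold and those at the window edges. The peaks with a quotient of at least 2 and those whose scores needed the multiplier 20 were singled out after their values were seen, and the side-by-side ranges, quotients and motifs were also chosen then. The members and lists were chosen with earlier results of these data known. Planned counts of pathway and marker genes with a peak at their start were left out because the gene table is of another build, so the labelled cell type was not checked against its markers.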

Additional observations from a re-analysis of the deposited data

How the results depend on the processing

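Of 80 alternative values over 18 results, 70 stayed within 1.5 times or, for medians, within their interval. This tally does not measure robustness. No peaks of a window touched (shortest gaps 1476 bp at Tlr2 and 809 bp at Tlr4) and no edge cut a peak, so merging and whole peaks could change nothing. Counting from 0 moved the Tlr2 median width only from 223 to 222 bp. The intervals are wide: medians of −log10 q of 190 at Tlr2 and 159 at Tlr4, among the stronger peaks, still counted as within them. With only peaks at or above the list's median −log10 q, there were 7 peaks at Tlr2 (11.7 per 100 kb) and 9 at Tlr4 (6.67 per 100 kb), and the ratio of Tlr2 to Tlr4 became 1.42 for median width, against 0.916, and 1.07 for median fold, against 0.765. Fewer peaks enter by construction. With 30 kb on each side of the reference position, Tlr4 had 8 peaks and the ratio of median −log10 q was 0.587, against 1.00. Without the 2 peaks of highest −log10 q at each locus, an alternative chosen after seeing the data, it was 0.638. The ratios of the loci were also added after seeing the data. Peak density stayed higher at Tlr2 where an alternative changed the counts. Its ratio was 1.75 with only peaks at or above the list's median −log10 q and 1.62 with 30 kb on each side. The rest of the 5 alternatives run for it left the ratio at 2.09 because they altered no count in these windows. The leading Tlr4 peak was the one at the gene start when ranked by −log10 q. Merging touching peaks, requiring whole peaks inside the window and counting coordinates from 0 left both peak numbers as they were. Planned settings for pathway gene starts could not be tried without mm39 gene positions. No paired analysis was possible because no value belongs to a single sample. Since depth is unknown, a stretch with no listed peak may still be accessible below the calling threshold.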
